A study of Homo sapiens with 3 samples.

Results

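The regions described are the peaks on chromosome 19 from chromatin immunoprecipitation followed by sequencing (ChIP-seq) of XPB and of XPD in HT1080, a human cell line derived from a fibrosarcoma. All listed peaks on the chromosome were taken, whatever their values: 1077 of the 21555 XPB peaks and 768 of the 14570 XPD peaks, 1845 of 36125 in all. Each peak was placed by its summit into one of 4 blocks of hg19: a proximal zinc-finger block from 19.5 to 24.5 Mb, a terminal zinc-finger block from 52.5 to 59.2 Mb, a long-arm block from 28 to 52.5 Mb and a distal short-arm block from 0 to 19.5 Mb. No peak of either list fell in the stretch from 24.5 to 28 Mb, which holds the centromere, and no peak interval crossed a block bound. The XPB and XPD samples are 1 library each, made with rabbit polyclonal antibodies on chromatin of formaldehyde-fixed nuclei, and both drew on a single chromatin pool together with an input DNA sample, which was not analysed here. The labels give no genotype and no treatment, so as labelled the 2 libraries differ in antibody; the protocol text attached to the samples names a CSB antibody, and the antibody fields were followed.

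XPB and XPD are the DNA helicases of TFIIH, the general transcription factor that joins RNA polymerase II at promoters. XPB works as a translocase that opens promoter DNA at the start of transcription, and XPD opens the DNA around a lesion in nucleotide excision repair. Chromosome 19 has the highest gene density of the human chromosomes and carries the great clusters of Krüppel-type zinc-finger genes, whose products are mostly DNA-binding repressors that recruit KAP1. The bodies of many of these genes are known to carry the histone mark H3K9me3. The terminal part of the long arm also holds the leukocyte receptor complex, which is expressed in blood cells.

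Of 1451 protein-coding genes that RefSeq lists on chromosome 19 (GRCh38.p14), 250 had a ZNF symbol, 17.2%, and these made up 48.4% of the 517 such genes in the genome; the next chromosome, 7, had 35. The longest run of neighbouring protein-coding genes with only ZNF symbols held 27 genes, ZNF737 to ZNF681, a cluster that is known to lie on the short arm next to the centromere. Other runs, of 24 genes (ZNF627 to ZNF791) and of 20 genes each (ZNF283 to ZNF180 and ZNF566 to ZNF793), were also on the chromosome. This table is of another build than the peaks, so no position was carried over, no peak was assigned to a gene, and the names of the blocks rest on their bounds alone. How many zinc-finger genes lie in each of the 4 blocks was not counted, and the other runs were not placed in a block. The long-arm and distal short-arm blocks may hold runs of them too. Contrasts between the zinc-finger blocks and the other blocks are therefore contrasts of position. They do not compare zinc-finger genes with other genes.

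Peaks were far fewer per megabase in the proximal zinc-finger block than in the rest of the chromosome, and the terminal zinc-finger block lay in between, in both lists. The XPB list held 14 peaks in the proximal zinc-finger block, 83 in the terminal zinc-finger block, 498 in the long-arm block and 482 in the distal short-arm block. That is 2.80 XPB peaks per Mb (95% exact Poisson interval 1.53 to 4.70) in the proximal zinc-finger block, 12.4 (9.87 to 15.4) in the terminal zinc-finger block, 20.3 (18.6 to 22.2) in the long-arm block and 24.7 (22.6 to 27.0) in the distal short-arm block. The XPD list gave the same order with 8, 54, 360 and 346 peaks in those blocks, or 1.6 (0.691 to 3.15), 8.06 (6.05 to 10.5), 14.7 (13.2 to 16.3) and 17.7 (15.9 to 19.7) per Mb. With 1 library per antibody no test was made between blocks or between antibodies, and these intervals cover counting error only; they are too narrow for peaks that lie in clusters.

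Set against the distal short-arm block, the density in the proximal zinc-finger block was 0.113 times as high for XPB (exact interval of the ratio 0.0615 to 0.192) and 0.0902 times as high for XPD (0.0386 to 0.180). In the terminal zinc-finger block the ratio was 0.501 for XPB (0.392 to 0.634) and 0.454 for XPD (0.334 to 0.606). The long-arm block reached 0.822 for XPB (0.724 to 0.934) and 0.828 for XPD (0.713 to 0.963). For no block did the interval of the ratio reach 1 in either list. Among peaks with a score of at least 300, of which the proximal block held 1 in each list, the ratio of that block was 0.0534 for XPB and 0.0929 for XPD. At these scores the terminal ratio was nearer to 1, at 0.718 for XPB and 0.693 for XPD, and so was the long-arm ratio, at 0.938 and 0.966. Both zinc-finger blocks together took up 21.005% of the length of the 4 blocks and held 9.01% of the XPB and 8.07% of the XPD peaks. Peak intervals covered 0.237% of the proximal zinc-finger block for XPB and 0.152% for XPD, against 2.31% and 1.82% of the distal short-arm block.

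**Figure D1:**
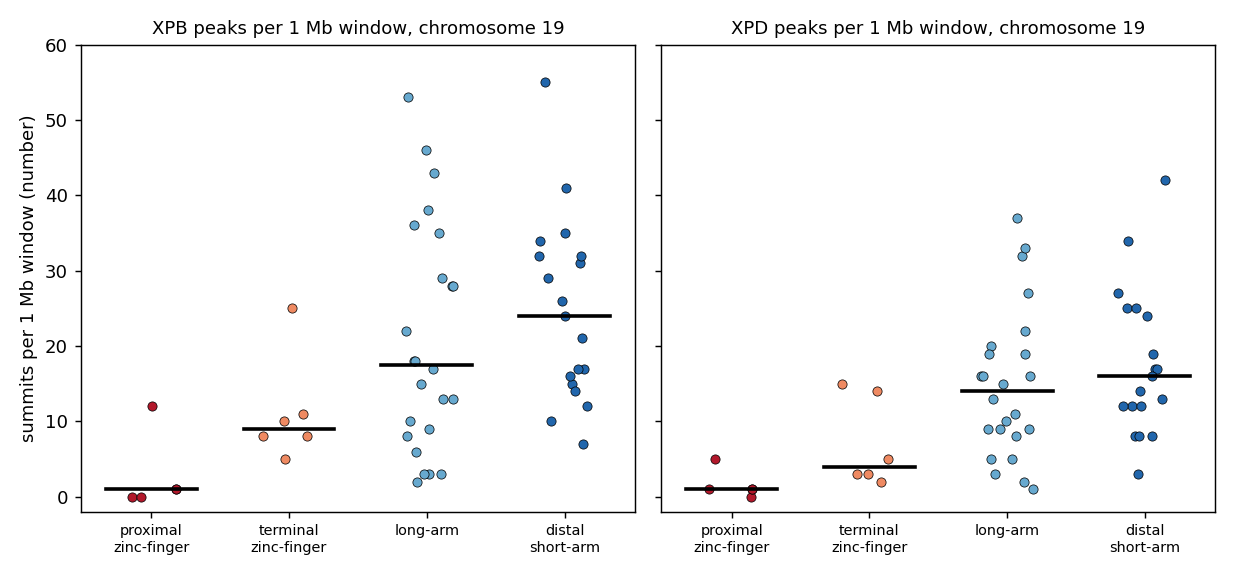
Number of summits in each full 1 Mb window of chromosome 19 (y axis) by block (x axis), with XPB on the left and XPD on the right; each point is a window and each bar the median of its block. The median XPB window held 1 summit in the proximal zinc-finger block, 9 in the terminal zinc-finger block, 17.5 in the long-arm block and 24 in the distal short-arm block; for XPD it held 1, 4, 14 and 16.

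Most peaks of the proximal zinc-finger block sat at its outer edge. Of its peaks, 12 of the 14 for XPB and 5 of the 8 for XPD lay in the first 500 kb, from 19.5 to 20 Mb, a density of 24 (12.4 to 41.9) and 10 (3.25 to 23.3) per Mb. The remaining 4.5 Mb held 2 XPB and 3 XPD peaks, 0.444 (0.0538 to 1.61) and 0.667 (0.137 to 1.95) per Mb. Without that first 500 kb, a cut made after the positions were seen, the ratio to the distal short-arm block was 0.0180 for XPB (0.00217 to 0.0653) and 0.0376 for XPD (0.00771 to 0.111). For scale, the sparsest of the other autosomes was chromosome 4, at 2.72 XPB summits and 1.74 XPD summits per Mb over the span of its peaks. Those values are means of a whole chromosome, and stretches of 4.5 Mb on other chromosomes were not examined. In 4 of the 5 windows of 1 Mb in this block each list had fewer than 3 peaks, and none of the windows in the other 3 blocks was so empty.

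None of the 5 peaks of the inner 4.5 Mb overlapped a peak of the other list. Over the whole lists, 26.6% of XPB and 38.7% of XPD peaks had a partner. On chromosome 19 at scores under 200, 13.3% and 28.7% did, and so few inner peaks allow no comparison with these shares. The median height on the chromosome was 11 fragments for XPB and 12 for XPD. The inner XPB summits were at or just below their median, and the inner XPD summits were above theirs. The XPB peaks ran from 21379015 to 21379548, where the summit held 11 fragments, and from 23252766 to 23253317, where it held 10. The XPD peaks ran from 21371890 to 21372270 (15 fragments), from 22544577 to 22545203 (14) and from 24097007 to 24097965 (16). The last of these scored 307 on the caller's scale, where 150 was the lowest listed value, and the other 4 scored between 152 and 191; the chromosome 19 medians were 197 for XPB and 189 for XPD. At the outer edge, with 12 XPB and 5 XPD peaks, 3 sites were in both lists. The first ran from 19534837 to 19535797 in the XPB list, with summits of 15 fragments for XPB and 12 for XPD and a score of 381 for XPB and 192 for XPD. The others ran from 19754648 to 19755606 (10 fragments for XPB and 11 for XPD) and from 19886661 to 19887912 (8 and 19). The summits nearest to the bound at 19.5 Mb were at 19535315 inside it (15 fragments) and at 19494932 outside it (6 fragments) for XPB, and at 19535387 (12) and 19477633 (13) for XPD.

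The terminal zinc-finger block was uneven as well. Its 6 full windows of 1 Mb had between 5 and 25 peaks for XPB and between 2 and 15 for XPD, and the fullest for both lists summed, from 55.5 to 56.5 Mb, had 25 and 14; the fullest for XPD alone was from 54.5 to 55.5 Mb, with 15. In steps of 500 kb, the stretch from 53 to 54 Mb held no XPB and 1 XPD peak, and the stretch from 57 to 57.5 Mb held none of either list. Between these, the step from 54.5 to 55 Mb held 9 XPB and 13 XPD peaks, and the step from 55.5 to 56 Mb held 20 XPB and 8 XPD peaks. Peaks thus stood in groups within the block in both lists, with stretches nearly free of them in between. The end of the block, from 59 to 59.2 Mb, held 5 XPB and 8 XPD peaks.

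Long peak-free stretches took up far more of the zinc-finger blocks than of the other blocks. Those of more than 500 kb numbered 4 in the proximal and 2 in the terminal zinc-finger block, and 3 in the long-arm and 1 in the distal short-arm block. Between neighbouring summits of either list, the longest interval of the chromosome was 4.19 Mb across the centromere, from 24097568 to 28284115. The next were 1.48 Mb from 19887517 to 21372080 and 1.17 Mb from 21379176 to 22544808, both in the proximal zinc-finger block. The fourth, 1.07 Mb from 8627543 to 9695299, was in the distal short-arm block. The fifth and the sixth, 0.931 Mb from 53281869 to 54213103 and 0.924 Mb from 56828715 to 57752294, were in the terminal zinc-finger block. The stretches of more than 500 kb made up 84.1% of the proximal and 27.7% of the terminal zinc-finger block, against 8.16% of the long-arm and 5.48% of the distal short-arm block.

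The median spacing of summits was wider in the zinc-finger blocks, both between adjacent summits of either list and within each list, where intervals overlapped. These measures are not alike, since the pooled one includes the offset between XPB and XPD summits of a shared site. The median distance between neighbouring summits of either list was 13.7 kb in the proximal and 10.9 kb in the terminal zinc-finger block, and 9.20 kb in the long-arm and 8.83 kb in the distal short-arm block. In both zinc-finger blocks together, 47.4% of XPB summits (exact 95% interval 37.2 to 57.8) had a neighbour of the same list no more than 10 kb away, against 53.1% (49.9 to 56.2) in the other blocks. For XPD the shares were 40.3% (28.1 to 53.6) and 43.5% (39.8 to 47.2). The intervals of these shares in the zinc-finger blocks include the values of the other blocks in both lists. The median distance to the nearest summit of the same list was 10.996 kb (5.80 to 16.5) in the zinc-finger blocks and 8.58 kb (7.78 to 10.1) in the other blocks for XPB, with overlapping intervals. For XPD it was 21.4 kb (7.62 to 32.6) and 12.9 kb (11.7 to 14.5), also overlapping. In the proximal zinc-finger block, with 8 XPD peaks, it was 82.8 kb (7.74 to 1553), against 12.6 kb (10.2 to 14.7) in the distal short-arm block.

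**Figure D2:**
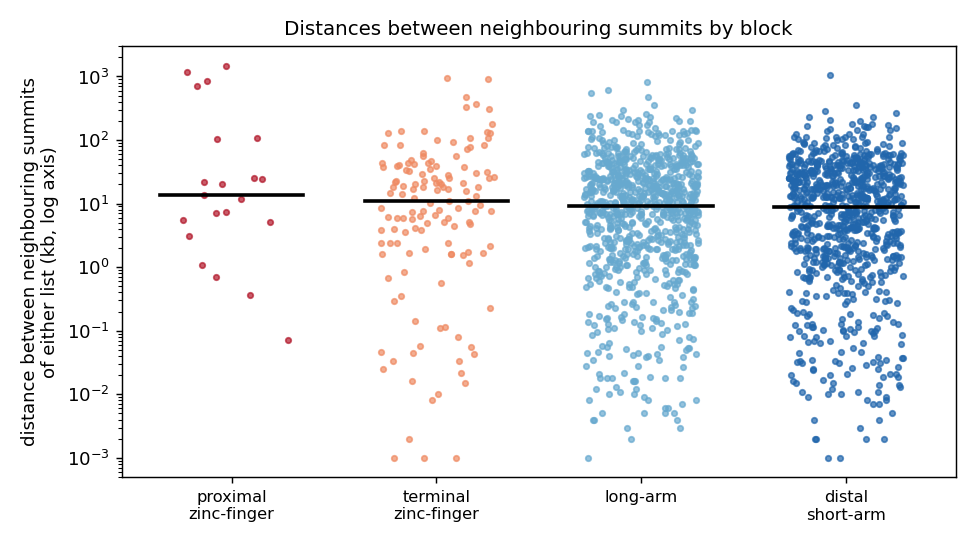
Distance between neighbouring summits of either list within a block (y axis, kb, log axis) by block (x axis); each point is an interval between adjacent summits, bars are medians, and intervals of 0 bp are drawn at the foot of the axis. The medians lie between 8.83 and 13.7 kb in all 4 blocks, while 4 of the 21 intervals in the proximal zinc-finger block exceed 500 kb.

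The larger blocks also held sparse and dense windows. In the long-arm block, windows of 1 Mb ranged between 2 and 53 peaks for XPB and between 1 and 37 for XPD. The windows from 28 to 30 Mb held 3 and 2 XPB peaks and 3 and 5 XPD peaks, and the window from 32 to 33 Mb held 3 XPB and 1 XPD peak. The window from 37 to 38 Mb, with 3 XPB and 5 XPD peaks, lay between windows with 18 XPB peaks each. The fullest long-arm window for XPB was from 45 to 46 Mb, with 53 XPB and 32 XPD peaks, and for XPD from 39 to 40 Mb, with 46 XPB and 37 XPD peaks. In the distal short-arm block the fullest window was from 13 to 14 Mb, with 55 XPB and 42 XPD peaks, and the sparsest from 9 to 10 Mb, with 7 XPB and 3 XPD peaks. Sparse windows were thus not confined to the blocks named for zinc-finger genes. Whether the sparse windows outside those blocks hold zinc-finger genes was not examined.

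The lists rose and fell together along the chromosome. Across the 54 full windows, Spearman's rho between XPB and XPD peak numbers was 0.92 and Pearson's r was 0.92; the windows share the chromatin pool and are neighbours on 1 chromosome, so these values describe the lists only. Windows with more XPD than XPB peaks existed: from 54.5 to 55.5 Mb there were 10 XPB and 15 XPD peaks. The number of XPB peaks per XPD peak was 1.56 (1.13 to 2.19) in both zinc-finger blocks and 1.39 (1.26 to 1.53) in the other blocks, and was 1.48 over all chromosomes.

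Summit heights were slightly higher in the zinc-finger blocks than in the other blocks of the chromosome. Heights are in fragments piled up at the summit and are not scaled to sequencing depth. For XPB the median was 12 fragments (order-statistic 95% interval 11 to 12) over both zinc-finger blocks and 10 (10 to 11) over the other blocks. For XPD it was 14 (13 to 15) and 12 (12 to 12). Median heights of the other autosomes ran from 11 to 12 for XPB and from 12 to 13 for XPD. For XPB the zinc-finger median was within that range and the median of the other blocks was below it. For XPD the zinc-finger median was above the range and that of the other blocks was at its lowest value. By block, the XPB median was 11 in the proximal and 12 in the terminal zinc-finger block, 11 in the long-arm block and 10 in the distal short-arm block, and the XPD median was 14.5, 14, 12 and 12. The proximal block contributes 14 and 8 values only, with intervals of 8 to 15 for XPB and 11 to 19 for XPD. Summits of 20 fragments or more made up 9.28% of XPB peaks (4.33 to 16.9) and 11.3% of XPD peaks (4.66 to 21.9) in the zinc-finger blocks, against 5.51% (4.17 to 7.13) and 5.95% (4.32 to 7.96) in the other blocks. The difference in median height was 2 fragments in each list, with intervals that met at 11 for XPB and stood apart for XPD. The XPB difference was smaller without the fullest 1 Mb window of each block, with medians of 11 and 10. At scores of at least 200 the medians were 13.5 and 12 for XPB, and 14.5 and 13 for XPD.

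Peaks close to the lowest listed score also had a higher mean height in the zinc-finger blocks. At scores under 170, the mean height was 10.8 fragments in 27 XPB peaks of the zinc-finger blocks and 9.48 in 244 of the other blocks. For XPD it was 13.3 in 17 peaks and 11.8 in 231. The medians at these scores were 11 (9 to 12) and 9 (9 to 10) for XPB, and 12 (11 to 15) and 11 (11 to 12) for XPD, so the intervals touched or overlapped in both lists.

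Scores and widths differed little. The median score was 193 (182 to 220.0) in the zinc-finger blocks and 197.5 (192 to 202) in the other blocks for XPB, and 196 (184 to 213) and 189 (184 to 193) for XPD. The median width was 839 bp (718 to 959) in the zinc-finger blocks and 894.5 bp (869 to 919) in the other blocks for XPB, and 936 bp (736 to 1054) and 964.5 bp (939 to 991) for XPD. In all 4 comparisons the interval of the zinc-finger blocks included the median of the other blocks. The highest score of the zinc-finger blocks was 1199 for XPB and 1207 for XPD, and that of the other blocks 1979 and 2020.

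**Figure D3:**
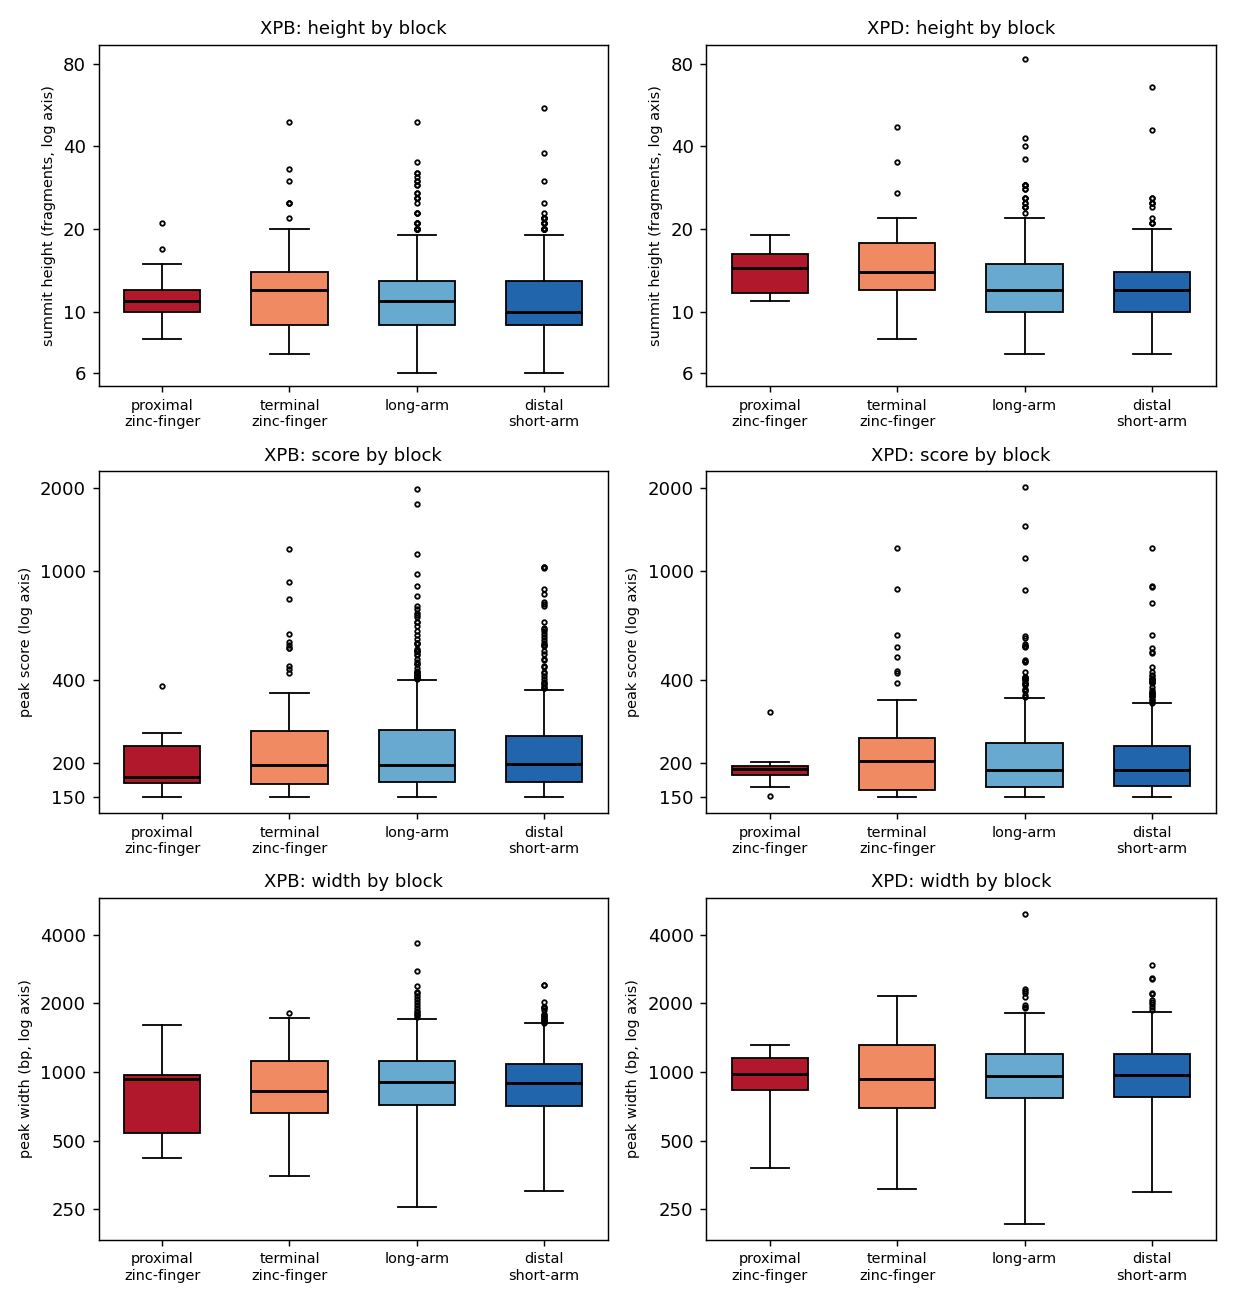
Summit height (top), peak score (middle) and peak width (bottom) by block, XPB on the left and XPD on the right, on log axes; boxes span the quartiles, lines are medians, whiskers reach 1.5 times the box length and circles are peaks beyond them. Boxes overlap between all blocks, and the median heights of the terminal zinc-finger block are 12 for XPB and 14 for XPD.

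Overlap between the lists differed between the zinc-finger blocks and the other blocks by less than its counting error. Of XPB peaks, 29 of 97 in the zinc-finger blocks (29.9%, exact interval 21.02 to 40.04) overlapped an XPD peak by at least 1 bp, against 295 of 980 in the other blocks (30.1%, 27.2 to 33.1); over the whole XPB list the share was 26.6%. Of XPD peaks, 28 of 62 in the zinc-finger blocks (45.2%, 32.5 to 58.3) overlapped an XPB peak, against 293 of 706 in the other blocks (41.5%, 37.8 to 45.2); over the whole XPD list it was 38.7%. By block, the XPB share was 31.3% in the terminal zinc-finger block, 29.7% in the long-arm block and 30.5% in the distal short-arm block. The XPD share was 46.3%, 40.8% and 42.2% in those blocks. In the proximal zinc-finger block 3 of 14 XPB peaks and 3 of 8 XPD peaks had a partner, with intervals of 4.66 to 50.8% and 8.52 to 75.5% that allow no comparison.

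The overlap climbed with the score in the zinc-finger blocks and in the other blocks. At scores under 200, 15.1% of XPB peaks (6.75 to 27.6) and 31.2% of XPD peaks (16.1 to 50.01) in the zinc-finger blocks had a partner, against 13.1% (10.3 to 16.4) and 28.5% (24.2 to 33.1) in the other blocks. At scores of 300 or more the shares were 78.9% (54.4 to 93.9) and 81.8% (48.2 to 97.7) in the zinc-finger blocks, against 74.8% (67.4 to 81.4) and 83.9% (74.8 to 90.7) in the other blocks. Scores of 300 or more made up no smaller a share of the peaks in the zinc-finger blocks: 19 of 97 (19.6%) for XPB and 11 of 62 (17.7%) for XPD, against 159 of 980 (16.2%) and 93 of 706 (13.2%) in the other blocks. Per Mb there were 1.62 such XPB and 0.940 such XPD peaks in the zinc-finger blocks, against 3.61 and 2.11 in the other blocks.

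**Figure D4:**
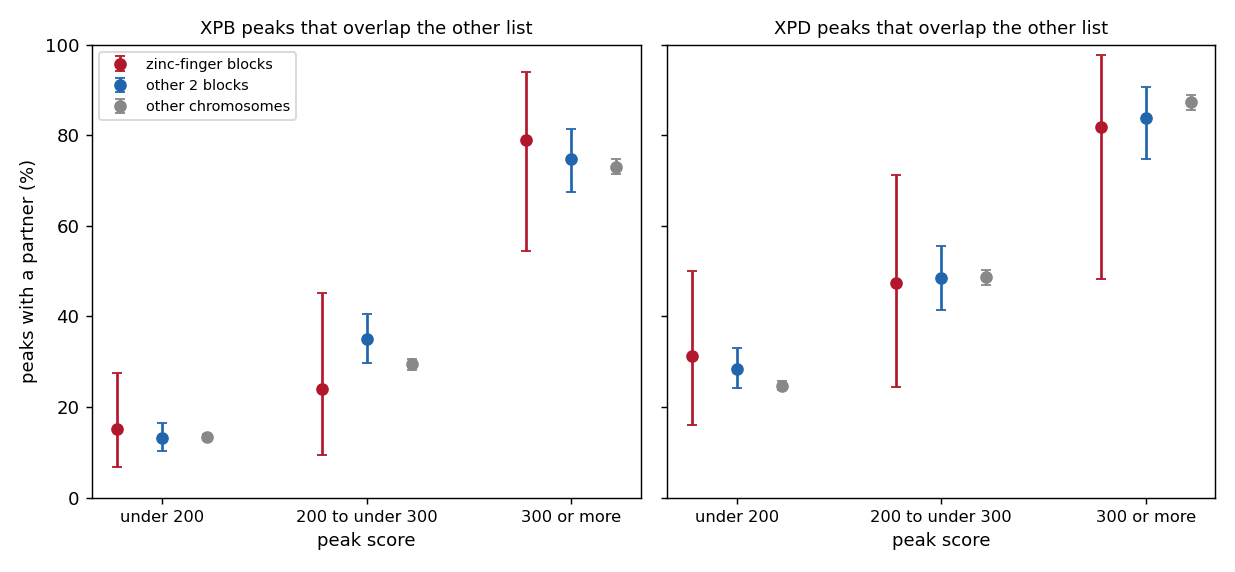
Percentage of peaks that overlap the other list (y axis) by score class (x axis), XPB on the left and XPD on the right, for the zinc-finger blocks, the other 2 blocks of chromosome 19 and all other chromosomes; bars are exact 95% intervals. The share climbs with score in each set, to 78.9% of XPB peaks and 81.8% of XPD peaks at scores of 300 or more in the zinc-finger blocks, whose wide intervals include the values of the other sets.

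Where both helicases had a peak, the median distance between their summits was shortest in the terminal zinc-finger block. A pair was an XPB and an XPD peak that each overlapped the other more than any further peak, and the chromosome held 309. The median summit distance was 45.5 bp (22 to 109) in the 28 pairs of the zinc-finger blocks and 109 bp (83 to 137) in the 281 pairs of the other blocks; the 25 pairs of the terminal block alone had 43 bp (16 to 81). Summits were within 100 bp of each other in 72% of the terminal pairs (50.6 to 87.9), 43.3% of the long-arm pairs (34.95 to 51.9) and 52.9% of the distal short-arm pairs (44.2 to 61.3), and these intervals overlap. On the other chromosomes the share was 50.7%. Median distances of the other autosomes ran from 48 to 168 bp. The shortest, 48, 52 and 56.5 bp on chromosomes 13, 4 and 18, lay within the interval of the terminal block, so a short distance was not particular to it. Fragments of 400 to 700 bp were selected, per the labels, and that limits how finely these distances can be read.

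Heights at paired summits were close to balanced. The median log2 ratio of XPB to XPD height was 0.06 (-0.16 to 0.28) in the zinc-finger pairs and -0.07 (-0.13 to 0) in the other pairs, and was -0.11 over all chromosomes. XPB was the taller in 15 and XPD in 12 of the 28 zinc-finger pairs, and XPB in 101 and XPD in 144 of the other 281. Across the 309 pairs Spearman's rho of the heights was 0.56, a description over peaks of the same libraries. In 25 pairs of chromosome 19 both summits reached 20 fragments, and of these 0 departed by more than 2-fold from the genome-wide median ratio, where 7 of 588, 1.19%, did over all chromosomes. The largest departure, -0.65 on the log2 scale, was at 38493806 to 38495638, where XPB had 49 fragments and XPD had 83.

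**Figure D5:**
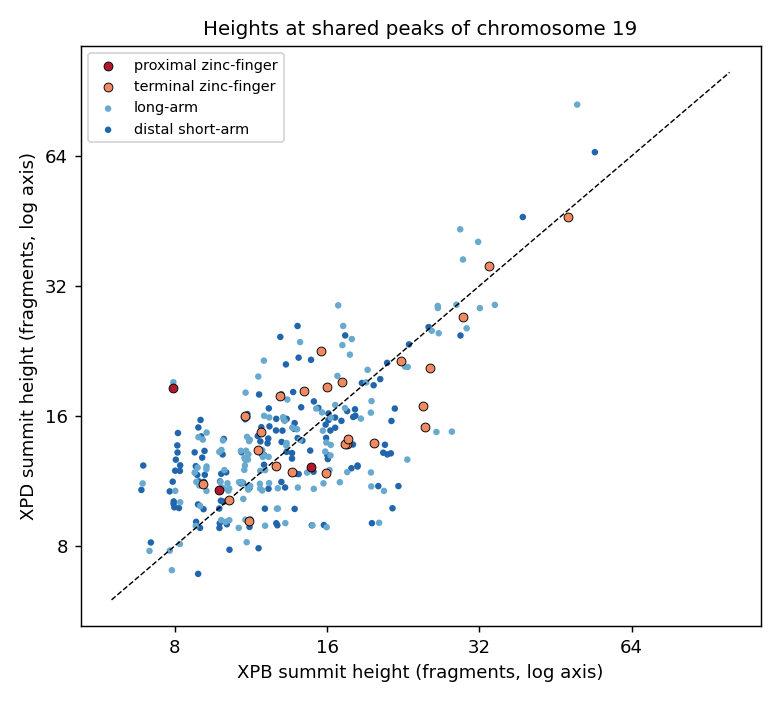
XPB summit height (x axis) against XPD summit height (y axis) in fragments, on log axes, for the 309 shared pairs of chromosome 19; points are coloured by block and moved slightly at random to separate ties, and the dashed line marks equal heights. The pair farthest above the line among the tall ones has 49 fragments for XPB and 83 for XPD.

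The tallest summits of the chromosome stood in every block but the proximal zinc-finger block. Each of the 10 tallest peaks in either list had a partner in the other list, and 7 sites were among the 10 tallest of both; 2 of each set were in the terminal zinc-finger block. The last places were tied, among 4 XPB peaks of 30 fragments and 4 XPD peaks of 29, and went to the higher score, so these counts depend on that choice.

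In the terminal zinc-finger block the tallest peak ran from 54704134 to 54705243, and the XPB summit, of 49 fragments, was 1 bp from the XPD summit, of 47. The other ran from 55896338 to 55897718 (33 fragments for XPB, 35 for XPD). Further tall pairs of that block had 30 fragments for XPB, 27 for XPD (57791077 to 57791993, also tied with the tenth XPB place), 25 and 21 (55699818 to 55701532), and 22 and 21 (56146172 to 56147134). The terminal block thus held 5 of the 25 tall pairs of the chromosome. These were 5 of its own 25 pairs, against 20 of 281 in the long-arm and distal short-arm blocks. Over all chromosomes 588 of 5536 pairs were tall. The proximal block had 3 pairs, of which 0 were tall, too few to compare. No difference in these shares was tested. The tallest summit of the proximal block had 21 fragments in the XPB list, from 19774402 to 19774821 with no XPD peak over it, and 19 among XPD peaks, at 19887517.

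In the long-arm block the tallest ran from 38493806 to 38495638 and had the ratio given above; at 83 fragments it was the tallest XPD summit of the chromosome. The remaining long-arm sites in both sets ran from 49375214 to 49377987 (32 fragments for XPB, 29 for XPD) and from 49468373 to 49469759 (32 for XPB and 40 for XPD). Sites among the 10 tallest of the XPB list alone ran from 45926476 to 45927887 (35 for XPB, 29 for XPD, a tie with the XPD list's last places), from 49999266 to 49999995 (31 and 26) and, in the distal short-arm block, from 3154844 to 3155928 (30 and 25). Sites among the 10 tallest of the XPD list alone were at 41729079 to 41730230 (30 for XPB and 43 for XPD), 50143443 to 50144418 (30 and 36), both tied with the tenth XPB place, and 30178192 to 30179165 (17 and 29). In the distal short-arm block the tallest ran from 2475777 to 2476486, and the XPB summit, of 55 fragments, was 5 bp from the XPD summit, of 66. It was the tallest XPB summit of the chromosome. The other site of that block in both sets ran from 13263402 to 13264223 (38 for XPB, 46 for XPD).

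The widest peaks were outside the zinc-finger blocks. The widest XPB peak, from 39181363 to 39185046, spanned 3684 bp; its summit held 26 fragments and its score, 1979, was the highest of the XPB peaks here. Its XPD partner had 28 fragments at a summit 1660 bp away, the only tall pair with summits more than 300 bp apart. The widest XPD peak, from 49375346 to 49380275, spanned 4930 bp with 29 fragments and the highest XPD score, 2020. A broad site of the distal short-arm block, from 4633032 to 4635447 in the XPB list, was 2416 bp wide there (18 fragments) and 2932 bp wide in the XPD list (12 fragments). Another XPD peak there, from 18495760 to 18498338, was 2579 bp wide (26 fragments). Of the XPB peaks with a partner, 15 of 324 overlapped 2 XPD peaks, 0 of 29 in the zinc-finger blocks and 15 of 295 in the other blocks. Of the XPD peaks with a partner, 1 of 28 in the zinc-finger blocks and 16 of 293 in the other blocks overlapped more than 1 XPB peak. These counts are too small to tell the blocks apart.

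At scores of 300 or more, 44 of 178 XPB peaks and 17 of 104 XPD peaks of the chromosome had no partner. On the other chromosomes it was 782 of 2903 XPB and 206 of 1626 XPD peaks, so that 75.3% of XPB and 83.7% of XPD peaks at these scores had a partner on chromosome 19, against 73.1% and 87.3% elsewhere. The highest-scoring for XPB ran from 28283930 to 28284783, with 18 fragments and a score of 582; it is the first peak of either list beyond the centromere. The next was in the terminal zinc-finger block, from 55986186 to 55987995, with 12 fragments and 551, and the one after it in the distal short-arm block, from 11545632 to 11547651, with 13 and 499.5. For XPD they ran from 40665901 to 40667862 (13 fragments, 409), from 10986389 to 10987955 (16 fragments, 406) and from 17516694 to 17517925 (15 fragments, 393). These peaks scored high with summits of 12 to 18 fragments, and 1 library each gives no replicate check on them.

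Measured over the span of its peaks, chromosome 19 was the densest autosome after chromosome 22 in both lists despite its sparse proximal zinc-finger block. For XPD the margin was very narrow. The density over that span was 18.3 per Mb for XPB and 13.04 for XPD. The values were 19.6 and 13.07 on chromosome 22, and 16.4 and 11.4 on chromosome 17. The median of the 21 other autosomes was 7.29 and 5.03. Over the 55.7 Mb of the 4 blocks, without the peak-free stretch from 24.5 to 28 Mb, the density was 19.3 for XPB and 13.8 for XPD. The XPB value stayed below that of chromosome 22, and the XPD value was above it. Other autosomes were not cut in this way, so the XPD rank depends on the length used. The distal short-arm block alone, with 24.7 and 17.7 per Mb, was above the mean of every other autosome. The terminal zinc-finger block, with 12.4 and 8.06 per Mb, was above the median of the other autosomes. Median scores were the highest of all autosomes in both lists, 197 for XPB and 189.4 for XPD, against 182 to 196 and 176 to 189.2 on the others, a narrow margin for XPD. Its tallest summits had 55 fragments for XPB and 83 for XPD, which ranked 19 and 14 of 22 autosomes. The share of peaks with a partner, 30.1% for XPB and 41.8% for XPD, ranked 3 and 5.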

How the data were processed

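HT1080 chromatin was precipitated with antibodies against XPB or XPD, 1 library each, with 12 cycles of preamplification, per the labels' protocols. The submitters' processing notes name Bowtie 0.12.7, MACS 1.4 and hg19; the settings and the control of the peak calling are not given in the sources used here. The authors deposited, for each library separately, peak intervals with a score and summits with a signal. In the usual MACS layout the deposited score is a multiple of the negative log10 p-value (150 was the lowest value in both lists), and the deposited signal is the fragment pileup height, a whole number. Read depth is unknown, so heights were compared within a list, or as ratios unscaled for depth.

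Positions are 1-based. The members, blocks and lists were chosen with earlier results of these data known. Percentages carry exact (Clopper-Pearson) intervals, densities exact Poisson intervals, ratios of densities conditional exact intervals and medians order-statistic intervals, all at 95%. They cover counting error only, since peaks lie in clusters and the peaks of a list share 1 library. No test was made, with 1 library per antibody. Named peaks were the 10 tallest of each list, the tallest of each block, the 3 highest-scoring without a partner, the 3 widest, pairs past 2-fold, and the fullest windows; inner parts of the zinc-finger blocks and long peak-free stretches were chosen after their values were seen. No hg19 annotation or genome was used here, so no peak was assigned to a gene and no sequence is shown. The overlap, block and interval functions were tested on simulated lists. Alternatives varied the overlap rule, score minimum, list length, block bounds, windows and placing of peaks. Python 3.11.15, numpy 2.4.6, pandas 2.3.3, scipy 1.17.1 and matplotlib 3.10.9 were used.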

Additional observations from a re-analysis of the deposited data

How the results depend on the processing

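Among 137 alternatives, 94 gave a value inside the main result's interval and 43 gave a value beyond it. The rho had no interval, so its alternative was counted as beyond unless it was identical. Median heights and widths rose in each set at scores of at least 200. That cut leaves out the lowest-scoring peaks, so those shifts follow in part from the cut. A reversed direction could be seen only for the density ratios, whose main intervals lay below 1, and 0 of these reversed. Heights, scores, widths, overlap shares, summit distances and rho had no direction to reverse. The intervals of the log2 height ratios reached 0, so the count of reversals says nothing about those results. The density ratios of the zinc-finger and long-arm blocks to the distal short-arm block stayed below 1 in every alternative run. For the proximal zinc-finger block the XPB ratio (0.113) was 0.0534 at scores of at least 300, 0.0199 with blocks shortened by 500 kb at both ends, 0.0217 without the fullest window of each block and 0.0180 without its first 500 kb, an alternative added after seeing the data; the XPD ratio (0.0902) was 0.0277 with shortened blocks and 0.0376 without the first 500 kb. At scores of at least 300 the terminal ratio was 0.718 for XPB and 0.693 for XPD, and the long-arm ratio 0.938 and 0.966. At scores of at least 200 the median height was 13.5 for XPB in the zinc-finger blocks, 12 for XPB and 13 for XPD in the other blocks; the median width was 998 bp for XPB in the zinc-finger blocks, and 1044 bp for XPB and 1148 bp for XPD in the other blocks. The overlap in the other blocks was 23.2% of XPB and 32.2% of XPD peaks where 50% of both peaks had to overlap. It was 20.5% and 28.5% where summits had to lie no more than 250 bp apart, 33.4% and 50.8% at scores of at least 200, and 37.2% of XPB peaks with lists of equal length; the shares of both zinc-finger blocks together stayed within their wider intervals. In the proximal zinc-finger block alone the shares (21.4% for XPB and 37.5% for XPD) were 0 in both lists at scores of at least 200, with shortened blocks and without the fullest window. Windows of 500 kb gave a rho of 0.90. For single blocks, 19 of 48 overlap shares moved. No paired analysis was possible because each antibody has 1 library and no test was made. Unknown read depth, the score floor of 150 and the 14 and 8 peaks of the proximal block limit the comparisons of heights and overlap there.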

Other observations

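Shared and single-list peaks differed in height in each set of blocks. In the zinc-finger blocks the 29 shared XPB peaks had a median height of 16 fragments and the 68 single-list ones 11, and in the other blocks the 295 shared had 12 and the 685 single-list had 10. For XPD the medians were 15 in 28 shared and 13 in 34 single-list peaks of the zinc-finger blocks, and 13 in 293 shared and 11 in 413 single-list peaks of the other blocks. The shared XPB peaks of the zinc-finger blocks had a median score of 309, against 267 for shared XPB peaks of the other blocks; for XPD the medians were 217.7 and 217.3. No difference between blocks was tested.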
